A study of Homo sapiens with 96 samples.

Results

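Here A-to-I editing was followed in K562 cells through time courses of etoposide and romidepsin, each against the DMSO vehicle. The samples were 15 of the 96 analysed in the series: 5 named etoposide, 5 named romidepsin and 5 DMSO, taken after 6, 12, 24, 36 and 48 h. They were chosen by the treatment and time in their labels, with no measured value used. K562 is a human line from a chronic myeloid leukemia, and every sample came from unmodified K562 cells, so the labels separate the groups only by agent and time. Each agent and time had 1 sample, so the time points served as the pairs and the labels do not say whether the samples came from separate cultures. The p-values therefore measure the spread between these samples. The labels give no drug concentrations, and K562 identity could not be checked because the data hold editing levels and no expression values.

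ADAR enzymes deaminate adenosine to inosine in double-stranded RNA, and inosine is read as G. Editing falls mostly in introns, untranslated regions and non-coding RNAs, and a small number of recoding sites change an amino acid. Etoposide traps DNA topoisomerase II on DNA and leaves strand breaks, while romidepsin inhibits histone deacetylases and so raises histone acetylation. Either drug can change which transcripts a cell makes, and an editing site can be seen only in a transcript that is made and read.

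For each sample the authors' list gives an editing level, the fraction of edited reads averaged over their detection tools. A level of 0 was read as no level recorded, since a site can stand at 0 for want of editing or for want of reads. A site with a level above 0 is called recorded below. Of the 4149 listed sites, 1803 were recorded in at least 1 of the 15 samples, in 789 host genes or intergenic loci. Reads at the sites were not given, so single levels carry no interval. Fewer transcripts and less editing per transcript cannot be told apart from recorded sites alone. The study's supplement gives reads per sample, which served only as a divisor in an alternative.

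The names of the drugs need care. Of the sites tested by Sanger sequencing in etoposide or romidepsin samples of the time course, 39 site and sample pairs are in the list, and the editing level in the Sanger tables was found in the list column of that name for 0 of them. For 37 it stood, within 0.001, in the matching time column named for the other agent. The DMSO samples gave 13 of 14 matches in their own columns, and the 3 samples used as label anchors below gave 9 of 9. The series are therefore called etoposide-named and romidepsin-named, after the list. Under the names of the Sanger tables, each result of the etoposide-named series belongs to romidepsin and each result of the romidepsin-named series to etoposide. The pooled comparison of 10 drug samples with 5 DMSO samples holds under either naming.

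Sequences around the sites that carry the results are given first, in GRCh38, as RNA of the transcribed strand with 14 bases on either side. The edited adenosine is in capitals. The first 4 were recorded in the DMSO series and at no time in either drug series or in only 1 drug sample.

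HEPH intron, chrX:66208767-66208795, plus strand: auaggcuauggcuuAgacuuggcuaauau
TRPM7 intron, chr15:50590985-50591013, minus strand: caugcauagagauuAuucagacaguaugu
STXBP5 intron, chr6:147247077-147247105, plus strand: aaccuuagacaguuAuaaaagaguguuug
KPNA1 5′ UTR, chr3:122459507-122459535, minus strand: gagccugauccccuAagcaaccugccgag

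The next 4 were recorded in the etoposide-named series at 4 or 5 time points and in no DMSO sample. They are among the sites with the largest difference in recorded time points between that series and DMSO.

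LINC00624 lncRNA exon, chr1:147382788-147382816, minus strand: gagcgaggcaaccuAgagagacaaugugg
LINC00624 lncRNA exon, chr1:147383584-147383612, minus strand: uauguccaauaccuAugucuugagaagcu
DACT3 coding sequence, chr19:46649583-46649611, minus strand: cggcgcuccugcgcAggcgccgccgccgg
LRPPRC intron, chr2:43942803-43942831, minus strand: auuuagauuucuuuAguucaauuaacagg

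The last 4 are a site recorded in the romidepsin-named series, the site with the smallest p for a level difference from DMSO, and a pair of recoding sites recorded in most samples.

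DCPS 3′ UTR, chr11:126346580-126346608, plus strand: cacaggaccaaggcAucaugcugccagag
CALU intron, chr7:128741529-128741557, plus strand: uuuuauagaaguuuAgauuggaucauacc
COG3 coding sequence, chr13:45516222-45516250, plus strand: ucaccauuaaggaaAuuucccuggaccuc
SON coding sequence, chr21:33550999-33551027, plus strand: gcaacuggggcacuAgaguugccugggcc

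A G just before the edited base, which ADAR enzymes are known to disfavor, preceded 3.44% of the 1803 recorded sites. It preceded 4.24% of the 472 sites recorded only in DMSO, 3.79% of the 317 recorded only in the etoposide-named series and 2.57% of the 272 recorded only in the romidepsin-named series.

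Fewer sites were recorded under the drugs than under DMSO. The DMSO samples had 173, 154, 337, 492 and 633 recorded sites at 6, 12, 24, 36 and 48 h. The etoposide-named samples had 132, 184, 263, 335 and 538 at the same times. The romidepsin-named samples had 102, 142, 287, 299 and 451. All 3 series had their highest number at 48 h, 3.66 times the 6 h number in DMSO, 4.08 times in the etoposide-named and 4.42 times in the romidepsin-named series. The romidepsin-named sample was below DMSO at 5 of 5 times and the etoposide-named sample at 4 of 5, with 12 h as the exception.

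Pooled, the drug samples had 273 recorded sites on average and the DMSO samples 358, a difference of -84.5 ± 72.7 (SD of the 5 differences paired by time), or -23.6%. The difference passed the threshold of 0.05 in an exact permutation test with labels permuted within time points (p = 0.0165, two-sided, 243 arrangements). Without time as a block the exact permutation p was 0.354, the counts of a series spanning a wider range from 6 to 48 h than the difference between treatments. The etoposide-named series differed from DMSO by -67.4 ± 69.0 sites (exact permutation p = 0.125) and the romidepsin-named series by -102 ± 81.3 (exact permutation p = 0.063). With 5 pairs the smallest possible p is 0.063, so no single series can pass 0.05. Between both drugs the difference, romidepsin-named minus etoposide-named, was -34.2 ± 39.6 sites (exact permutation p = 0.125). The imatinib samples of the same time course, not part of these tests, had 183, 162, 428, 606 and 578 recorded sites, above DMSO at 4 of 5 times.

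**Figure D1:**
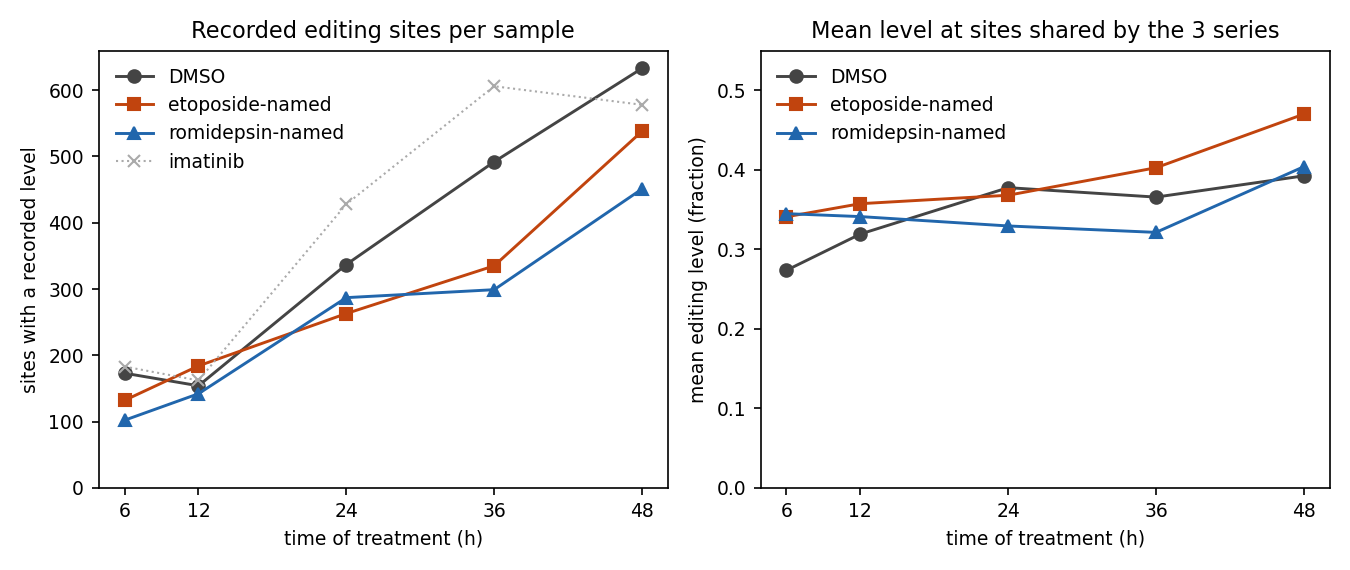
Left, the number of sites with a recorded editing level (y axis) by time of treatment in hours (x axis), 1 point per sample, for the DMSO, etoposide-named, romidepsin-named and imatinib series. The romidepsin-named points lie below DMSO at all 5 times. Right, the mean editing level as a fraction at the sites recorded in all 3 series at that time (22, 28, 47, 56 and 117 sites), where the etoposide-named series reaches 0.470 at 48 h and DMSO 0.393.

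Levels at sites recorded in all 3 series gave another picture. At each time the same sites were averaged in every sample, 22 at 6 h, 28 at 12 h, 47 at 24 h, 56 at 36 h and 117 at 48 h. The DMSO means were 0.274, 0.319, 0.378, 0.366 and 0.393. The etoposide-named means were 0.341, 0.358, 0.368, 0.403 and 0.470, above DMSO at 4 of 5 times. The romidepsin-named means were 0.345, 0.341, 0.330, 0.321 and 0.404, above DMSO at 3 of 5 times. The pooled difference in mean level was 0.0223 ± 0.0389 (exact permutation p = 0.255). It was 0.0421 ± 0.0340 for the etoposide-named series (exact permutation p = 0.125) and 0.00244 ± 0.0499 for the romidepsin-named series (exact permutation p = 0.938). The romidepsin-named level was lower than the etoposide-named level at 4 of 5 times, by -0.0397 ± 0.0350 (exact permutation p = 0.125). None of these 4 differences passed the threshold.

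The 8 sites with a level in all 15 samples had higher levels at 48 h than at 6 h in every series, except 1 site in DMSO. Their mean level went from 0.114 to 0.334 in DMSO, from 0.175 to 0.352 in the etoposide-named series and from 0.169 to 0.327 in the romidepsin-named series. One of them is the recoding site in SON, a protein of nuclear speckles needed for splicing. It had levels of 0.02, 0.03, 0.13, 0.21 and 0.259 in DMSO. The levels were 0.03, 0.07, 0.2, 0.19 and 0.271 in the etoposide-named series and 0.02, 0.09, 0.13, 0.19 and 0.18 in the romidepsin-named series. The 3 series thus lay close together at this site and shared the difference between early and late samples.

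Level differences at single sites were tested in 28 sites with levels in all 3 series at 3 or more time points, by limma with time as a factor. At a Benjamini-Hochberg adjusted p under 0.05, 0 sites (0.00%) were called in each of the 4 comparisons. The unadjusted limma p was under 0.05 for 2 sites pooled, 3 in the etoposide-named series, 1 in the romidepsin-named series and 4 between both drugs. Because 0 was treated as missing, samples without a level at a site did not enter its fit.

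The smallest p against DMSO belonged to an intronic site of CALU, which encodes calumenin, a calcium-binding protein of the secretory pathway. Its levels at 24, 36 and 48 h were 0.14, 0.27 and 0.335 in DMSO, with none recorded earlier. In the etoposide-named series they were 0.422, 0.55 and 0.733 at those times, after 0.234 at 12 h. In the romidepsin-named series they were 0.331, 0.2 and 0.28. The etoposide-named samples were above both other series at each of the 3 shared times. The difference from DMSO was 0.32 ± 0.0706 (SE) for the etoposide-named series (limma, adjusted p = 0.0861) and 0.0218 ± 0.0706 for the romidepsin-named series (limma, adjusted p = 0.859). The romidepsin-named minus etoposide-named difference was -0.298 ± 0.0706 (limma, adjusted p = 0.0618).

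A site in the 5′ UTR of MRPS22, a protein of the mitochondrial ribosome, at chr3:139355234 had the same adjusted p between both drugs. Its levels at 12, 24, 36 and 48 h were 0.571, 0.889, 0.801 and 0.903 in the etoposide-named series. They were 0.407, 0.717, 0.588 and 0.588 in the romidepsin-named series, lower at each of these times, and 0.571, 0.625, 0.819 and 0.761 in DMSO. The romidepsin-named minus etoposide-named difference was -0.216 ± 0.055 (SE, limma, adjusted p = 0.0618). The opposite direction was seen in the 3′ UTR of SPCS3, a subunit of signal peptidase, at 0.114 ± 0.042 (limma, adjusted p = 0.192), and in the 5′ UTR of CD164, a sialomucin, at 0.128 ± 0.0489 (limma, adjusted p = 0.204). An intronic site of CHD1, a chromatin remodeler, completed the 5 sites of smallest p in this comparison, at -0.131 ± 0.057 (limma, adjusted p = 0.321).

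An intronic site of LUC7L, a splicing factor linked to the U1 snRNP, had the smallest p in the pooled comparison. Its levels in DMSO were 0.722, 0.826, 0.857, 0.796 and 0.892. The etoposide-named levels from 12 to 48 h were 0.8, 0.8, 0.62 and 0.761, and the romidepsin-named levels from 24 to 48 h were 0.778, 0.667 and 0.834, with none recorded at 6 h in either. Every recorded drug level was below the DMSO level of its time. The pooled difference was -0.0872 ± 0.0304 (SE, limma, adjusted p = 0.395). An intronic site of MRPL3, also of the mitochondrial ribosome, differed by 0.155 ± 0.0707 (limma, adjusted p = 0.575).

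The other pooled sites of smallest p all had a limma adjusted p of 0.588. Lower under the drugs on average were sites in the 3′ UTRs of FAM20B, PPIA and SEC61A1 and in the coding sequence of COG3, by differences between -0.064 and -0.0306. FAM20B is a kinase of proteoglycan synthesis, PPIA is cyclophilin A and SEC61A1 forms the translocon channel. Higher on average were a pair of CD164 sites and a second MRPS22 site, by differences between 0.0654 and 0.132. COG3, a subunit of a Golgi tethering complex, is a known recoding target. Its levels in DMSO were 0.09, 0.255, 0.312, 0.5 and 0.303. The etoposide-named levels were 0.138, 0.18, 0.374, 0.287 and 0.398, and the romidepsin-named levels at 24, 36 and 48 h were 0.174, 0.26 and 0.344, with none recorded at 6 and 12 h. The ranges of the 3 series overlap.

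**Figure D2:**
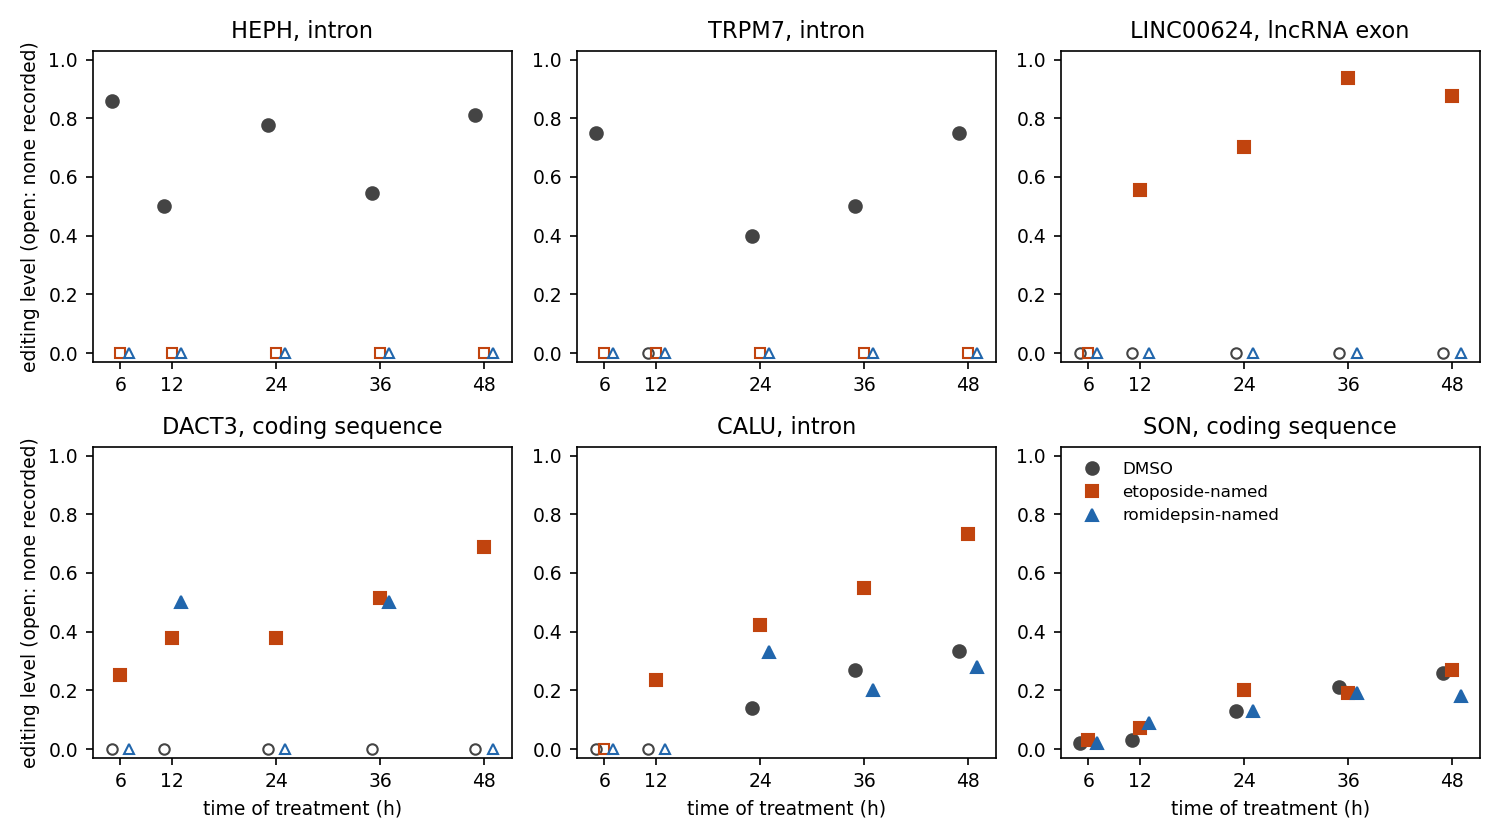
Editing level (fraction, y axis) of 6 sites by time of treatment in hours (x axis, points of the 3 series set apart by 1 h for visibility). Filled symbols are recorded levels and open symbols at 0 mark samples with no level recorded, so that HEPH has levels in the 5 DMSO samples only and SON in all 15 samples.

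Sites were next sorted by the series that recorded them. The paper reports that sites could not be predicted accurately from single samples, which kept it from naming sites induced by a given drug. Not every listed site that it tested by Sanger sequencing was found edited. Of the 1803 sites, 472 (26.2%) were recorded only in DMSO, 317 (17.6%) only in the etoposide-named series and 272 (15.1%) only in the romidepsin-named series, while 271 (15%) were recorded in all 3. Most sites of a single series were seen once: 76.5% of those recorded only in DMSO, 71.9% of the etoposide-named and 89.3% of the romidepsin-named ones had a level in 1 of the 15 samples. Sites seen at 1 time were also the majority within a series, 59.9% of the 1097 sites of DMSO. Sites recorded at 3 or more additional time points were counted next, without a test. Against DMSO the etoposide-named series had 41 such sites more often recorded (2.27% of the 1803) and 54 less often (3.00%). The romidepsin-named series had 21 (1.16%) and 56 (3.11%). With the mean of both drug series against DMSO there were 5 (0.277%) and 32 (1.77%). The romidepsin-named series against the etoposide-named series gave 28 (1.55%) and 49 (2.72%).

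The authors' list leaves out sites in repeats, and its unannotated sites were selected in part by genomic location. Shares of elements therefore describe this list. Over all 1803 sites, 73.4% lay in introns, 7.99% in 3′ UTRs, 6.66% in vlincRNAs, 4.83% in 5′ UTRs, 1.5% in coding sequences and 1.44% in lncRNA exons. Of the 54 and 56 sites less often recorded than in DMSO, 39 and 42 lay in introns, close to the share over all sites. Of the 41 sites more often recorded in the etoposide-named series, 16 lay in introns, 7 in lncRNA exons, 6 in vlincRNAs, 5 in 5′ UTRs and 4 in coding sequences. These 41 sites lay in 24 host genes. All 7 in lncRNA exons belonged to 1 transcript, LINC00624, and DACT3 held a pair of the coding sites. Of the 21 sites more often recorded in the romidepsin-named series, in 17 host genes, 10 lay in introns and 7 in 3′ UTRs. These shares were not tested. VlincRNAs are very long intergenic non-coding RNAs, here as annotated by the authors.

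A single site in an intron of HEPH, which encodes the copper ferroxidase hephaestin, had a level in all 5 DMSO samples and in no drug sample. It is at chrX:66208781, and the authors list it as unannotated. Its DMSO levels were 0.857, 0.5, 0.778, 0.546 and 0.812. In the imatinib series it had levels at 24, 36 and 48 h, of 0.579, 0.751 and 0.568. The TRPM7 site shown above had levels of 0.75, 0.4, 0.5 and 0.75 in DMSO at 6, 24, 36 and 48 h and none in either drug series. TRPM7 is an ion channel with a kinase domain. The STXBP5 site had levels of 0.125, 0.392, 0.218 and 0.295 in DMSO from 12 to 48 h and none under either drug.

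Other named sites had levels in some samples of 1 or both drug series. An intronic FRRS1 site at chr1:99739537 had levels of 0.8, 0.444, 0.711 and 0.514 in DMSO, none in the etoposide-named series and 0.5 at 24 h in the romidepsin-named series. A RAP2C intronic site at chrX:132210622 had levels in 4 DMSO samples, between 0.6 and 1.0, in no etoposide-named sample and in the romidepsin-named samples at 24 and 48 h. A site in NSMAF, on chromosome 8, had levels in 4 DMSO samples, no etoposide-named sample and 3 romidepsin-named samples, of 0.54, 0.6 and 0.75. A lncRNA exon site in LINC-PINT, a non-coding RNA induced by p53, was recorded in 5 DMSO samples, 1 etoposide-named sample and 3 romidepsin-named samples. Conversely the KPNA1 5′ UTR site had levels of 0.438, 0.525, 0.444 and 0.62 in DMSO, 0.75 at 24 h in the etoposide-named series and none in the romidepsin-named series. An intronic NLK site at chr17:28046033 was recorded in 4 DMSO samples at levels from 0.125 to 0.364, in 2 etoposide-named samples and in no romidepsin-named sample.

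Sites seen in the etoposide-named series and not in DMSO included an intronic site of LRPPRC, which encodes a binder of mitochondrial mRNAs. It had levels of 0.313, 0.653, 0.585, 0.4 and 0.5 from 6 to 48 h. The romidepsin-named series had a level only at 48 h, of 0.5. Over the 96 samples this LRPPRC site was recorded in 32. A coding site of DACT3, an antagonist of Wnt signaling, at chr19:46649597 had levels of 0.253, 0.377, 0.378, 0.515 and 0.689 in the etoposide-named series. It was listed at 0.5 in the romidepsin-named samples at 12 and 36 h and at none in DMSO. The imatinib samples at 12 and 24 h had levels of 0.501 and 0.5 there. An intronic BLCAP site at chr20:37519678 had levels of 0.5, 0.633, 0.7, 0.5 and 0.703 in the etoposide-named series, 0.7 at 48 h in DMSO, and 0.7 and 0.282 at 36 and 48 h in the romidepsin-named series.

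Sites more often recorded in the romidepsin-named series than in DMSO included the DCPS 3′ UTR site shown above, with levels of 0.238, 0.0909, 0.182 and 0.286 at 6, 12, 24 and 48 h. It had no level in DMSO and 1 in the etoposide-named series, of 0.429. A 5′ UTR site of DEF8 at chr16:89950260 had levels of 0.75, 0.75, 0.6 and 0.709 at 6, 24, 36 and 48 h. It had none in DMSO and 0.75 at 48 h in the etoposide-named series. Neighboring adenosines in a 3′ UTR assigned to ENSG00000259132, at chr14:22972905 and chr14:22972906 were recorded in 3 romidepsin-named samples and in no DMSO or etoposide-named sample, at levels from 0.75 to 1.0. Over the 96 samples these adenosines were recorded in 31 and 36, so they are not particular to that series. A 5′ UTR site of EHBP1L1 was recorded in 4 romidepsin-named, 3 etoposide-named, 3 imatinib samples and 1 DMSO sample.

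Recorded sites were then summed per host gene, the GENCODE gene on the same strand. In 185 host genes with a recorded site in at least 5 samples, an exact permutation test within time points called 0 (0.00%) at an adjusted p under 0.05 in the pooled comparison. At an unadjusted p under 0.05, 9 (4.86%) had fewer and 1 (0.541%) had more recorded sites under the drugs. The smallest possible p is 0.00823, and at least 31 genes at that p would be needed for any adjusted p under 0.05. It was reached by 4 genes, LINC00534, STXBP5, TRPM7 and HEPH. The DMSO samples alone could meet the minimum of 5 samples, so a gene could enter the test through the group where it is high. The HEPH site shown above has levels in the 5 DMSO samples only. LINC00534, STXBP5 and TRPM7 had sites in all 5 DMSO samples, which alone meet the minimum. The p-values of these 4 genes are therefore no support for a difference. Those of other genes with fewer sites under the drugs are given below as description only.

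LINC00534 and STXBP5 had the largest pooled differences, and both were at that smallest p (exact permutation test, adjusted p = 0.381). LINC00534 is a vlincRNA of chromosome 8, at chr8:90221341-90687863. It had 15, 7, 5, 6 and 9 recorded sites in DMSO, 5 at 6 h and none later in the etoposide-named series, and 2 at 6 h and none later in the romidepsin-named series. The imatinib samples had 12, 10, 6, 3 and 4. From 12 h on the drug samples were all at 0 and the DMSO samples at 5 or more. STXBP5, or tomosyn, restrains vesicle fusion by binding SNARE proteins. Its introns had 2, 7, 4, 7 and 12 recorded sites in DMSO, 1 in all in the etoposide-named and 1 in all in the romidepsin-named series. The imatinib samples had 3, 0, 9, 8 and 6.

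TRPM7 was also at the smallest p (exact permutation test, adjusted p = 0.381), with 2, 2, 4, 1 and 6 recorded sites in DMSO. The etoposide-named samples had 1, 0, 1, 0 and 0 and the romidepsin-named samples 1, 1, 0, 0 and 0. RAP2C, a small GTPase of the Ras family, had 0, 4, 4, 6 and 6 sites in DMSO, 0 at every time in the etoposide-named series and 0, 0, 3, 0 and 3 in the romidepsin-named series (exact permutation p = 0.0247, adjusted 0.761). FRRS1, a ferric reductase, had 3, 0, 8, 5 and 6 in DMSO against 0, 0, 0, 0 and 2 in the etoposide-named and 0, 0, 3, 2 and 6 in the romidepsin-named series (exact permutation p = 0.0494, adjusted 0.794).

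The nuclear import receptors KPNA1 and KPNB1, an importin alpha and an importin beta, were both among the genes with large differences. KPNA1 had 0, 1, 9, 9 and 9 sites in DMSO, 1, 0, 9, 2 and 7 in the etoposide-named series and 0 at every time in the romidepsin-named series (pooled exact permutation p = 0.0823). KPNB1 had 0, 1, 4, 4 and 7 in DMSO, 0, 1, 0, 0 and 4 in the etoposide-named series and 1, 0, 0, 0 and 2 in the romidepsin-named series (pooled exact permutation p = 0.0576). PHF3, which binds RNA polymerase II, had 4.2 ± 4.09 recorded sites per sample in DMSO (SD, n = 5 time points), 1.0 ± 2.24 in the etoposide-named and 2.4 ± 2.51 in the romidepsin-named series. NLK, the Nemo-like kinase, had 5.2 ± 3.77, 4.4 ± 2.30 and 1.2 ± 0.447 sites.

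**Figure D3:**
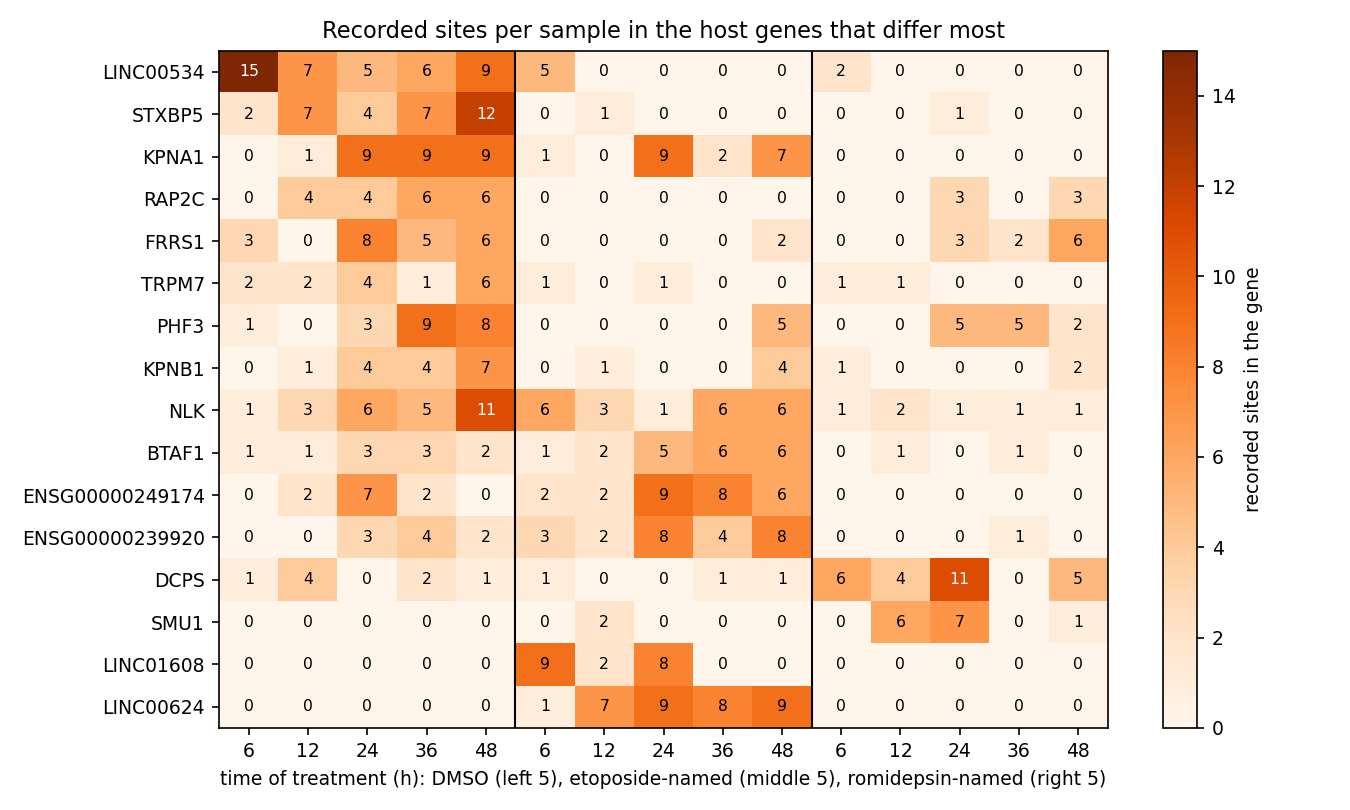
Number of recorded sites (color and printed number) in the 16 host genes with the largest differences between series (rows), in each of the 15 samples (columns, by time of treatment in hours within DMSO, etoposide-named and romidepsin-named). LINC00534 and STXBP5 have sites at every time in DMSO, while LINC00624 and LINC01608 have sites only in the etoposide-named samples of these 15.

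LINC00624 had the largest difference in the other direction. This lncRNA lies on chromosome 1 at chr1:147258885-147517875, and its 11 listed sites are all in exons. It had 1, 7, 9, 8 and 9 recorded sites in the etoposide-named series and 0 in every DMSO, romidepsin-named and imatinib sample. The site at chr1:147382802 had a level of 1.0 at 12, 24, 36 and 48 h. The site at chr1:147383598 had levels of 0.556, 0.701, 0.937 and 0.875 at these times, and a neighbor at chr1:147382800 had 0.5, 0.675, 0.481 and 0.727. Pooled with the romidepsin-named series, which had none, the gene did not pass (exact permutation p = 0.263). LINC00624 sites were recorded in 22 of the 96 samples of the series, among them 6 sites in the sample DMSO.3h_DMSO.6h, so these sites are not particular to a drug.

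Further transcripts differed between both drug series. LINC01608, a vlincRNA of chromosome 8, had 9, 2 and 8 sites at 6, 12 and 24 h in the etoposide-named series and none in DMSO or the romidepsin-named series. Over the 96 samples LINC01608 sites were recorded in 25, among them 2 sites in DMSO.2h.rep2, so they are not particular to a drug. The vlincRNA in ENSG00000249174, at chr5:18965861-19142346, had 2, 2, 9, 8 and 6 in the etoposide-named series, 0, 2, 7, 2 and 0 in DMSO and none in the romidepsin-named series. ENSG00000239920, a gene model at chr11:5254392-5678434 that spans other genes, so that its sites are uncertain in their host, had 3, 2, 8, 4 and 8, against 0, 0, 3, 4 and 2 in DMSO and 1 in all in the romidepsin-named series. BTAF1, a regulator of the TATA-binding protein, had 4.0 ± 2.35 sites per sample in the etoposide-named series, 2.0 ± 1.00 in DMSO and 0.4 ± 0.548 in the romidepsin-named series.

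DCPS and SMU1 went the other way. DCPS, the scavenger decapping enzyme, had 6, 4, 11, 0 and 5 recorded sites in the romidepsin-named series, all in its 3′ UTR. DMSO had 1, 4, 0, 2 and 1 and the etoposide-named series 1, 0, 0, 1 and 1. SMU1, a spliceosome protein, had 0, 6, 7, 0 and 1 sites in the romidepsin-named series, 2 at 12 h in the etoposide-named series and 0 in every DMSO sample of the time course. Outside it SMU1 sites were recorded in other DMSO samples, 19 in DMSO.2h.rep1 among them. Over the 96 samples SMU1 sites were recorded in 64 and DCPS sites in 67, so neither is particular to a drug. The romidepsin-named and DMSO values of DCPS overlap.

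Genes of lists set around the action of the drugs were then examined. Over all 789 host genes, the pooled difference was negative for 360, positive for 372 and 0 for 57, with a median of 0.0. Of 44 DNA damage response and repair genes, 8 had a recorded site, 3 with a lower and 4 with a higher pooled mean, a median difference of 0.05 sites per sample, and 0 of 4 tested were called. Their summed sites per sample averaged 4.8 in DMSO, 1.6 in the etoposide-named and 6.8 in the romidepsin-named series. MRE11, the nuclease that processes DNA breaks, held 12 of their 25 sites, all but 1 in introns. MRE11 had 0, 0, 0, 8 and 7 recorded sites in DMSO, 0, 0, 2, 0 and 0 in the etoposide-named and 0, 2, 8, 0 and 7 in the romidepsin-named series. ERCC6, of transcription-coupled repair, had none in DMSO, 2 in all in the etoposide-named and 6 in all in the romidepsin-named series (exact permutation p = 0.198).

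Histone acetylation genes held few sites. Of 32 genes, 4 had 1 recorded site each, with a median pooled difference of -0.05 and none with enough samples to be tested. Of 17 p53 targets only GDF15 had a recorded site, once, in DMSO. None of the 3 ADAR genes and none of the 12 globin and erythroid genes listed had a site assigned to it. Where genes overlapped on a strand, a site went to the longest protein-coding one. The paper reports edited sites in the coding sequence of OR51I1, a gene of the erythroid list. A gene with no site assigned may therefore still hold sites. Of 29 zinc finger genes named ZNF with a number, 8 had a recorded site, 3 with a lower and 5 with a higher pooled mean (median 0.1), and the 1 tested was not called.

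Among 14 genes with known recoding sites, 9 had a recorded site, 3 with a lower and 5 with a higher pooled mean (median 0.1), and 0 of 5 tested were called. BLCAP, a known recoding target, was the only host gene of the 185 with more recorded sites under the drugs at an unadjusted p under 0.05 (exact permutation p = 0.0494, adjusted 0.794). It had 1, 1, 0, 0 and 1 sites in DMSO, 1, 3, 3, 2 and 3 in the etoposide-named and 1, 2, 0, 2 and 3 in the romidepsin-named series. Its coding site at chr20:37519170 had 1 level in DMSO, of 0.271, with 0.352, 0.402, 0.322 and 0.291 in the etoposide-named series. The romidepsin-named series had 0.278, 0.392, 0.453 and 0.419 there. The recoding site of the DNA glycosylase NEIL1 at chr15:75353745 was recorded in 3 DMSO samples at 0.5, 0.833 and 0.75, in 1 etoposide-named sample at 0.5 and in 4 romidepsin-named samples at 0.75, 0.5, 0.614 and 0.714. The site of IGFBP7 was recorded in each series once, at 48 h, with levels of 0.379 in DMSO, 0.5 and 0.727.

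Where the recorded sites lay was compared over 3 genomic elements. Introns held 67.9% of recorded sites in DMSO on average and 63.0% under the drugs, a difference of -4.89 percentage points (exact permutation p = 0.0741, adjusted 0.222). The 3′ UTRs held 12.6% in DMSO and 15.6% under the drugs, a difference of 2.99 percentage points (exact permutation p = 0.239, adjusted 0.358). VlincRNAs held 7.88% in DMSO and 5.75% under the drugs, a difference of -2.13 percentage points (exact permutation p = 0.453, adjusted 0.453). None of the 3 passed the threshold. The intron difference did pass with annotated sites only and without the sites of LINC00534, and the 3′ UTR difference with 1 site per cluster.

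The shares of the single drug series were not tested. The etoposide-named 3′ UTR share averaged 12.2% against 12.6% in DMSO, above DMSO at 3 times and below at 2. The romidepsin-named share averaged 19.0%. The romidepsin-named 3′ UTR share was above DMSO at 5 of 5 times, from 27.5% at 12 h to 10.4% at 48 h, while DMSO had 21.4% and 6.32%. In numbers per sample, this series had 40.6 sites in 3′ UTRs against 34.2 in DMSO, and 175 in introns against 265. DCPS gave 5.2 of the 3′ UTR sites per sample against 1.6 in DMSO, and SMU1 2.8 against 0.0. The share without these genes was not computed. The imatinib share was also above DMSO at 5 of 5 times, from 25.9% at 12 h to 7.44% at 48 h. The romidepsin-named vlincRNA share was below DMSO at 5 of 5 times, between 1.33% and 4.90% against 3.63% and 16.2% in DMSO. The etoposide-named vlincRNA share lay between 2.04% and 20.5%, above DMSO at 2 times and below at 3. Counting a site once for each sample that recorded it, LINC00534 alone gave 42 of the 107 vlincRNA records of the DMSO series, 5 of 91 in the etoposide-named and 2 of 27 in the romidepsin-named series. Without it the etoposide-named share was above DMSO at 4 of 5 times and the romidepsin-named share stayed below at 5 of 5, and the pooled difference turned to 0.621 percentage points. In lncRNA exons the etoposide-named series had 47 records against 19 in DMSO and 18 in the romidepsin-named series, and 34 of the 47 were in LINC00624.

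**Figure D4:**
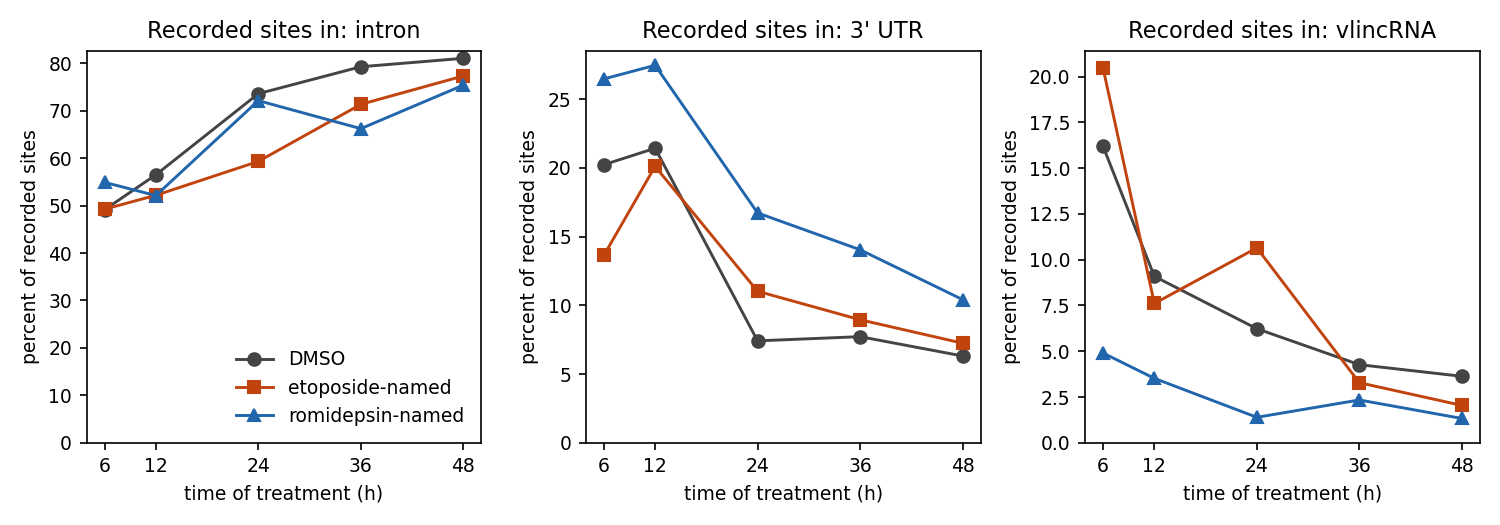
Percent of the recorded sites of each sample (y axis) in introns, 3′ UTRs and vlincRNAs by time of treatment in hours (x axis), 1 point per sample. The romidepsin-named points are above DMSO for 3′ UTRs and below DMSO for vlincRNAs at all 5 times.

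Because the names conflict, the 6 h samples were set beside 3 samples of the series outside the time course, used as label anchors: Romidepsin.3h, Romidepsin.6h.rep1 and DMSO.3h_Etoposide.6h, with 227, 269 and 389 recorded sites. The first of these was treated with romidepsin for 3 h, and the last had DMSO for 3 h and then etoposide for 6 h. Of the 132 sites of the etoposide-named 6 h sample, 43 (32.6%) were recorded in Romidepsin.3h, 49 (37.1%) in Romidepsin.6h.rep1 and 33 (25%) in DMSO.3h_Etoposide.6h. Of the 102 sites of the romidepsin-named 6 h sample, 26 (25.5%), 32 (31.4%) and 37 (36.3%) were. The DMSO 6 h sample shared 27.2%, 26.6% and 27.2% of its 173 sites. As shares of the anchors, these overlaps are 18.9%, 18.2% and 8.48% for the etoposide-named sample and 11.5%, 11.9% and 9.51% for the romidepsin-named sample.

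Restricted to sites recorded in no DMSO sample of the time course, the etoposide-named 6 h sample shared 12 and 16 of its 47 sites with Romidepsin.3h and Romidepsin.6h.rep1 and 6 with DMSO.3h_Etoposide.6h. The romidepsin-named 6 h sample shared 3, 4 and 6 of its 35 sites. Sites of 1 transcript can weigh on these counts. LINC01608 alone had 9 sites in the etoposide-named 6 h sample and 8 in Romidepsin.6h.rep1. With levels above 0.2 only, the difference for Romidepsin.6h.rep1 reversed to 22.8% against 23.9%, and that for DMSO.3h_Etoposide.6h shrank to 20.7% against 21.1%. These are counts of sites in single samples and were not tested.

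**Figure D5:**
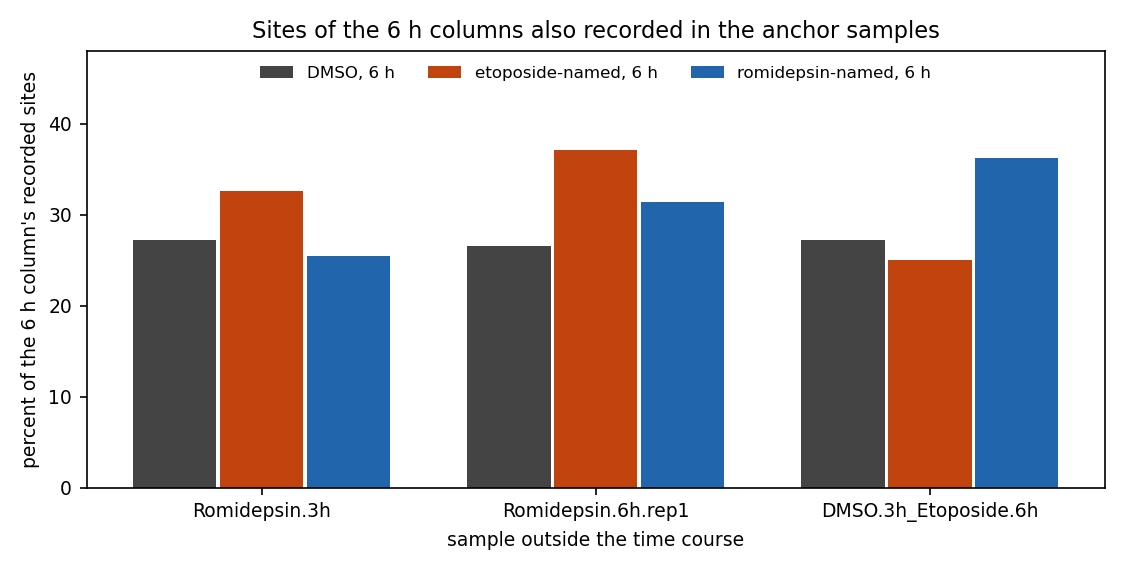
Percent of the recorded sites of each 6 h sample of the time course (y axis) that were also recorded in 3 samples outside the time course (x axis), 1 bar per 6 h sample, with no replicates. The etoposide-named bar is higher than the romidepsin-named bar for both romidepsin samples and lower for the etoposide sample (25% against 36.3%), a gap that falls to 20.7% against 21.1% with levels above 0.2 only.

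Single transcripts were set beside the anchors in the same way, as counts without a test. LINC00624 had 2 and 3 recorded sites in Romidepsin.3h and Romidepsin.6h.rep1 and 0 in DMSO.3h_Etoposide.6h. ENSG00000249174 had 4, 5 and 1, LINC01608 had 0, 8 and 1, and NLK had 2, 7 and 0. RAP2C, recorded in the romidepsin-named but not in the etoposide-named series, had 0, 0 and 2. FRRS1 had 0, 0 and 3. BTAF1, higher in the etoposide-named series, had 0, 0 and 3, an order opposite to that of LINC00624. SMU1 had 4, 7 and 7 and DCPS, higher in the romidepsin-named series, had 0, 2 and 0. Among the other named genes, LINC00534 and STXBP5 each had 3, 0 and 1, TRPM7 had 1, 1 and 2, PHF3 had 0, 0 and 2, KPNB1 had 0, 1 and 1, ENSG00000239920 had 0, 1 and 0, and KPNA1 had none. Samples without romidepsin in their label held such sites too. LINC00624 had 6 in DMSO.3h_DMSO.6h, and LINC01608 had 6 in DMSO.6h_Alpha_Amanitin.0h. Counts of single transcripts therefore do not settle which drug name belongs to a series.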

How the data were processed

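Total RNA of K562 cells was sequenced by the authors from rRNA-depleted, strand-specific libraries. Reads were trimmed, aligned to GRCh38 and filtered (TopHat2 2.1.1, Picard 2.0.1 and SAMtools 1.9 in the submitters' processing notes), and sites were detected with REDItools, RED-ML and SPRINT. The deposited list gives, per site and sample, the editing level as a fraction averaged by the authors over the tools. It covers sites outside repeats whose highest level exceeded 0.2. Of 130 sample columns, 96 could be tied to labels and 34 were not used. A level of 0 was treated as not recorded. Reads at single sites are not given, so no interval was computed.

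Host genes were taken from GENCODE 44 by position and strand, and sequences from GRCh38. Numbers of recorded sites, mean levels and shares were compared by exact two-sided permutation tests within time points (243 arrangements pooled, 32 for a single series). Host genes with recorded sites in at least 5 samples were tested alike. Levels of sites recorded in all 3 series at 3 or more time points were fitted with limma 3.58.1 (R 4.3.3) with series and time as factors. Benjamini-Hochberg adjustment covered all host genes or sites tested, or the 3 elements. The tests were tested on simulated data. Levels of the Sanger tables were joined to the list within 0.001.

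Named host genes were the 10 with the largest pooled difference and the 8 with the largest difference in each other comparison, and named sites the 10 with the smallest pooled limma p, the 5 of each other comparison and the 6 with the largest difference in time points per series and direction. Some of the genes these rules name are not reported here. Members, lists and tests were chosen with earlier results of these data known. Alternatives were other level minimums, annotated sites, 1 site per cluster of 100 bases, reads per sample as a divisor, no time block and each time point left out. Leaving out the sites of LINC00534 was chosen after seeing the data. Python 3.11.15, numpy 2.4.6, pandas 2.3.3, pysam 0.24.0 and matplotlib 3.10.9 were used.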

Additional observations from a re-analysis of the deposited data

Results flagged for a closer look

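In 13 of 63 sets of 5 samples tested, 1 time point lay far from the others of its series. Chance gives about 1 in 20 for continuous values, a rate that does not apply to the small counts here, where the other 4 samples are often tied. Within the romidepsin-named series, the mean level at shared sites was highest at 48 h, at 0.404. In the etoposide-named series, the time point apart was the highest for FRRS1 (2 recorded sites), KPNB1 (4), LINC00534 (5), PHF3 (5), SMU1 (2) and STXBP5 (1), and the lowest for LINC00624 (1, at 6 h). In the romidepsin-named series it was the highest for ENSG00000239920 (1 recorded site), LINC00534 (2), NLK (2) and STXBP5 (1). In DMSO it was the highest for ENSG00000249174, at 7 sites at 24 h.

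Transcripts without a recorded site in the 5 DMSO samples had sites in samples outside the comparisons. LINC00624 had 2 in Romidepsin.3h and 3 in Romidepsin.6h.rep1. LINC01608 had 8 in Romidepsin.6h.rep1, 1 in DMSO.3h_Etoposide.6h and 1, 2, 1 and 1 in the imatinib samples at 6, 12, 36 and 48 h. SMU1 had 4 in Romidepsin.3h, 7 in Romidepsin.6h.rep1, 7 in DMSO.3h_Etoposide.6h and 2, 1 and 1 in the imatinib samples at 6, 12 and 24 h. Only the anchors and the imatinib series are given here. Other samples had sites of these transcripts too, among them DMSO.2h.rep2. No cause of these values was tested.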

How the results depend on the processing

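Across the alternatives run, 169 of the recomputed values were counted as unchanged. A test had to keep its direction and its side of the threshold, and a count to stay within a set ratio. The values below include those that changed. Apart from the alternatives that remove sites, samples or the time block by construction, the cause was not tested. Without the time block the pooled difference in recorded sites stayed at -84.5 with an exact permutation p of 0.354, and leaving out each time point in turn gave -108 to -61.9. The romidepsin-named difference in mean level was -0.000299 with annotated sites only, and ranged from -0.0148 (without 6 h) to 0.0151 (without 24 h) with time points left out, being -0.00244 without 12 h. The intron share passed the threshold at -7.70 percentage points with annotated sites only and at -6.71 without LINC00534, and the 3′ UTR share at 2.23 with 1 site per cluster, each with an adjusted exact permutation p of 0.0494. The vlincRNA share turned to 0.621 without LINC00534 (adjusted exact permutation p = 0.922). With 4 or more additional time points, sites more and less often recorded numbered 0 and 6 pooled, 16 and 14 in the etoposide-named series, 2 and 10 in the romidepsin-named series, and 4 and 14 between both drugs. With levels above 0.2 only, 26 sites were more often recorded in the etoposide-named series, 34 less often in the romidepsin-named series, and 17 and 28 more and less often between both drugs. By limma, sites called between both drugs ranged from 0 to 2 with time points left out, 2 without 6 h and 1 without 24 h. For Romidepsin.6h.rep1 the etoposide-named minus romidepsin-named overlap was -1.12 percentage points with levels above 0.2 and 22.6 with sites in no DMSO sample, against 5.75 with all sites, and for DMSO.3h_Etoposide.6h it was -0.475 with levels above 0.2, against -11.3. Depth at the sites is not given, so that a site not recorded may have had few reads.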

Other observations

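The smaller classes of sites also differed in their shares between the series, without a test. Coding sequences held 2.07% of recorded sites in DMSO on average, 3.21% in the etoposide-named series, above DMSO at 5 of 5 times, and 2.54% in the romidepsin-named series, above at 4 of 5. The 5′ UTRs held 5.20%, 7.68% and 5.87%, with the etoposide-named series above DMSO at 5 of 5 times. LncRNA introns held 1.88% in DMSO and 0.525% in the etoposide-named series, below DMSO at 5 of 5 times, and 1.51% in the romidepsin-named series. Sites in transcripts the authors class as unknown held 0.537% in DMSO, 1.28% in the etoposide-named and 1.9% in the romidepsin-named series, both above DMSO at 5 of 5 times, on 8, 17 and 22 records in all.

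Few sites persisted through a series. Of 1097 sites recorded at any time in DMSO, 21 were recorded at all 5 times, against 22 of 883 in the etoposide-named and 17 of 836 in the romidepsin-named series. Of the sites of the 6 h sample, 42.8% were also recorded at 48 h in DMSO, 34.8% in the etoposide-named and 45.1% in the romidepsin-named series. At the sites recorded at both times, the 48 h level was the higher one for 49 of 74, 37 of 46 and 31 of 46.

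Sites recorded at 2 or more times in the etoposide-named series and in no sample of DMSO or the romidepsin-named series numbered 89, of which 8 were recorded in Romidepsin.3h, 11 in Romidepsin.6h.rep1 and 9 in DMSO.3h_Etoposide.6h. The matching sites of the romidepsin-named series numbered 29, of which 4, 5 and 6 were recorded there.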
